A study of Mus musculus with 6 samples.

Results

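The 10 genes described here encode transcription factors of the lung mesenchyme, the connective tissue around the airway epithelium. They are the T-box factors Tbx2, Tbx3, Tbx4 and Tbx5, the basic helix-loop-helix factors Tcf21, Twist1 and Twist2, and the homeobox factors Meox1, Meox2 and Prrx1. They were chosen by name as mesenchymal identity factors, with the probe set of highest mean taken for each gene. All 10 were found among the 22180 genes tested, each with 1 probe set on the array. The RNA came from entire lung buds of E12.5 mouse embryos, hybridised to 6 arrays. The mutant group was 3 Fzd2 CKO lungs of genotype Fzd2Flox/Flox; Shh cre/+, and the control group was 3 lungs of genotype Shh cre/+. Both groups therefore carried 1 copy of the Cre allele at Shh, a gene of the lung epithelium, and lungs without Cre, floxed or not, were not analysed here. The series set out to find genes that depend on the Wnt receptor Fzd2 in that epithelium, and the genes described here act on the other side of the tissue boundary. The labels call the arrays biological replicates without saying how many lungs went into each.

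In the developing lung, epithelium and mesenchyme instruct each other. Tbx4 and Tbx5 act in the mesenchyme upstream of Fgf10, the growth factor that draws the epithelial buds outwards, and Tbx2 and Tbx3 are repressors that keep mesenchymal cells dividing. Tcf21 is needed in the mesenchyme for normal branching and for fibroblast lineages, while Prrx1, Twist1 and Twist2 are broader mesenchymal factors, also known from limb, head and skin.

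Mutant lungs had higher Prrx1, at 1.42 times the control level (95% interval 1.20 to 1.68), and higher Twist1, at 1.18 times (1.01 to 1.38), but neither passed limma's test over all genes. The other 8 factors had mutant levels between 0.930 times (Tcf21) and 1.06 times (Twist2) the control level. No member was called at an adjusted p under 0.05 (0 of 10 by limma), where 0.0631% of all genes tested were. At an unadjusted p under 0.05 there were 2 of 10, Prrx1 and Twist1, both higher in mutants, where 7.34% of all genes tested were higher and 5.15% lower by that rule. The groups did not overlap in 1 of 10, Prrx1, against 19.4% of all genes. The median log2 difference of the 10, mutant minus control, was 0.023, and that of all genes tested was 0.011. Because whole lung buds were measured, a change in the number of mesenchymal cells and a change in RNA per cell cannot be told apart.

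**Figure D1:**
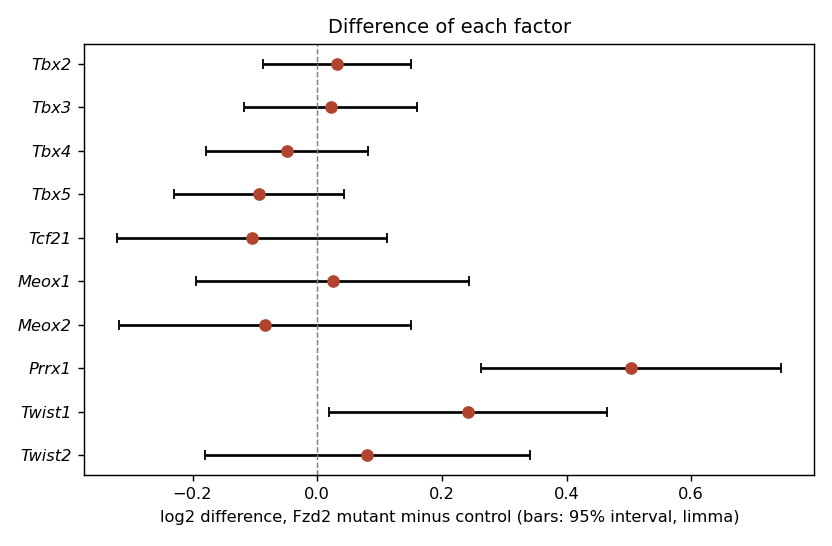
Log2 difference (mutant minus control) of each of the 10 factors, with limma's 95% interval as bars and a dashed line at no difference. The intervals of Prrx1 (0.26 to 0.74) and Twist1 (0.019 to 0.47) lie above 0, and those of the other 8 factors include 0.

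Several arrays stood apart in genes of other tissues. Fzd2 itself had log2 values of 9.67, 9.07 and 9.54 in mutant replicates 1 to 3, against 9.57, 9.82 and 9.75 in control replicates 1 to 3, a log2 difference of -0.29 (SE 0.15, limma adjusted p = 0.475). The highest mutant value lay between the control values, and it is unknown whether its probes fall in the floxed stretch. Some heart muscle genes were high in mutant replicate 1, where the atrial myosin light chain gene Myl7 stood at 11.20 against at most 9.18 in every other array. Genes of adipose tissue were high in mutant replicate 2 (Fabp4 at 12.92, against at most 8.52 elsewhere), and genes of adult small intestine in control replicate 1 (Lyz1 at 10.96, against at most 6.05 elsewhere). The mean of 11 measured markers of general mesenchyme was higher in mutants, with shifts of 0.19, 0.27 and 0.13 log2 units from the control mean in mutant replicates 1 to 3, and that of 20 epithelial markers was lower, with shifts of -0.23, -0.36 and -0.25. The matrix protein gene Postn had the highest difference of the mesenchyme markers (0.86), and their median was 0.13. The marker lists were chosen with earlier results of these data known, so their counts describe these arrays and are no independent support. Of the mesenchyme markers, 11 of 11 had higher mutant means, where 12153 of 22180 genes tested did. Of those 11, 5 were higher at an unadjusted p under 0.05, against 7.34% of all genes, and 0 were called by limma. Of the epithelial markers, 20 of 20 had lower means, where 10027 of 22180 genes tested did. Of those 20, 16 were lower at an unadjusted p under 0.05, against 5.15% of all genes. Of the 20, 1, the splicing regulator gene Esrp1, was called. Smooth muscle, another mesenchymal lineage, went the other way from the mesenchyme markers, with lower mutant means in 6 of 7 markers. Of these 7, 4 were lower at an unadjusted p under 0.05, against 5.15% of all genes, and 0 were called by limma. The smooth muscle list mean shifted by -0.093, -0.14 and -0.32 log2 units in mutant replicates 1 to 3, and its members Myocd and Actg2 had log2 differences of -0.42 and -0.38 (limma adjusted p = 0.212 and 0.188). Of 6 mesothelium markers 5 had higher mutant means. Of these, 2 were at an unadjusted p under 0.05, against 7.34% of all genes, and 0 were called by limma. Gpm6a had a log2 difference of 0.37 (limma adjusted p = 0.109). The lower mesothelium marker, Krt19 (-0.087), is also 1 of the 20 epithelial markers. The part of these marker lists in the differences of the 10 factors was not tested.

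The T-box pair Tbx4 and Tbx5 is the best known regulator of lung bud outgrowth from the mesenchyme. Tbx5 stood at log2 values of 11.99, 11.84 and 11.93 in mutant replicates 1 to 3, against 11.94, 12.05 and 12.04 in control replicates 1 to 3. Mutant replicate 1 lay among the controls and the groups overlapped. Its log2 difference was -0.093 (SE 0.058, 95% interval -0.23 to 0.043, limma adjusted p = 0.535). Tbx5 is also a heart gene. Mutant replicate 1, the array with high heart muscle genes, had the highest Tbx5 of the mutants, and without it the difference was -0.13. That array was also the highest mutant for Tbx2, Tbx3, Tcf21, Meox1 and Meox2. The part of heart tissue in the Tbx5 value was not tested. Values for Tbx4 were 11.01, 10.93 and 11.02 in mutants, against 10.96, 11.10 and 11.04 in controls, with only mutant replicate 2 below all controls. That gave a log2 difference of -0.048 (SE 0.056, interval -0.18 to 0.082, adjusted p = 0.739). With 1 array left out, Tbx5 ran from -0.13 without control replicate 1 to -0.055 without mutant replicate 2, while Tbx4 was at its lowest, -0.087, without control replicate 1 and at its highest, -0.015, without control replicate 2. The intervals put the mutant level between 0.853 and 1.03 times the control level for Tbx5, and between 0.883 and 1.06 times for Tbx4.

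Tbx2 and Tbx3, the repressor pair, had log2 differences close to 0. Tbx2 read 9.58, 9.46 and 9.54 in mutants, against 9.52, 9.48 and 9.48 in controls, a log2 difference of 0.032 (SE 0.051, interval -0.086 to 0.15, limma adjusted p = 0.817). Tbx3 read 10.66, 10.49 and 10.54 in mutants, against 10.50, 10.54 and 10.59 in controls, a log2 difference of 0.021 (SE 0.060, interval -0.12 to 0.16, adjusted p = 0.904). In both genes mutant replicate 1 was the highest and mutant replicate 2 the lowest of the 6 arrays, so the spread among mutants enclosed the controls. Without mutant replicate 1 the difference of Tbx3 turned to -0.028 and that of Tbx2 was 0.0061. In the reference annotation (GRCm38.p6) Tbx2 and Tbx4 are direct neighbours on chromosome 11, and Tbx3 and Tbx5 on chromosome 5, with 0 protein-coding genes between the members of each pair.

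Tcf21 had the lowest difference of the 10. Its log2 values were 10.56, 10.30 and 10.46 in mutants, against 10.41, 10.53 and 10.70 in controls, and the groups overlapped broadly. The log2 difference was -0.10 (SE 0.093, interval -0.32 to 0.11, limma adjusted p = 0.659). It moved to -0.17 without control replicate 1 and to -0.028 without control replicate 3, the highest array, and it was -0.16 without mutant replicate 1 and -0.034 without mutant replicate 2.

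The Meox homeobox genes, known from somites and from muscle and vessel development, showed no common direction. Meox2 read 10.52, 10.35 and 10.09 in mutants, against 10.40, 10.41 and 10.40 in controls. The controls lay close together, the mutants spread to both sides of them, and the SD was 0.217 in mutants against 0.00741 in controls (n = 3 each). Its log2 difference of -0.084 (SE 0.10, interval -0.32 to 0.15, adjusted p = 0.750) turned to 0.031 without mutant replicate 3, the lowest array. Meox1 read 8.13, 7.90 and 7.92 in mutants, against 7.78, 8.05 and 8.05 in controls, where the lowest array was control replicate 1 and the highest mutant replicate 1. Its log2 difference was 0.025 (SE 0.094, interval -0.19 to 0.24, adjusted p = 0.933), and it turned to -0.048 without mutant replicate 1 and to -0.064 without control replicate 1. Meox1 lies on chromosome 11 with Fzd2, with 26 protein-coding genes between them in GRCm38.p6, so it is the member closest to the targeted gene.

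Prrx1, a paired-related homeobox factor of limb, head and other connective tissue progenitors, had the highest difference of the 10. It stood at log2 values of 9.13, 9.47 and 9.45 in mutant replicates 1 to 3, against 8.98, 8.81 and 8.74 in control replicates 1 to 3. Every mutant array lay above every control array. Mutant replicates 2 and 3 were close to each other, and mutant replicate 1 was nearer to the highest control than to them. The log2 difference was 0.50 (SE 0.10, interval 0.26 to 0.74), with an unadjusted p of 0.00143, rank 181 of all genes, and a limma adjusted p of 0.175. Exact permutation of the 6 arrays (two-sided) returned p = 0.1, the smallest that 3 arrays against 3 allow. The mean of the adipose markers shifted from the control mean by -0.039, 2.98 and -0.094 in mutant replicates 1 to 3. In control replicates 1 to 3 it shifted by -0.20, -0.28 and 0.48. Without mutant replicate 2 the Prrx1 difference was 0.44 (limma adjusted p = 0.327). The part of adipose tissue in the Prrx1 values was not tested.

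**Figure D2:**
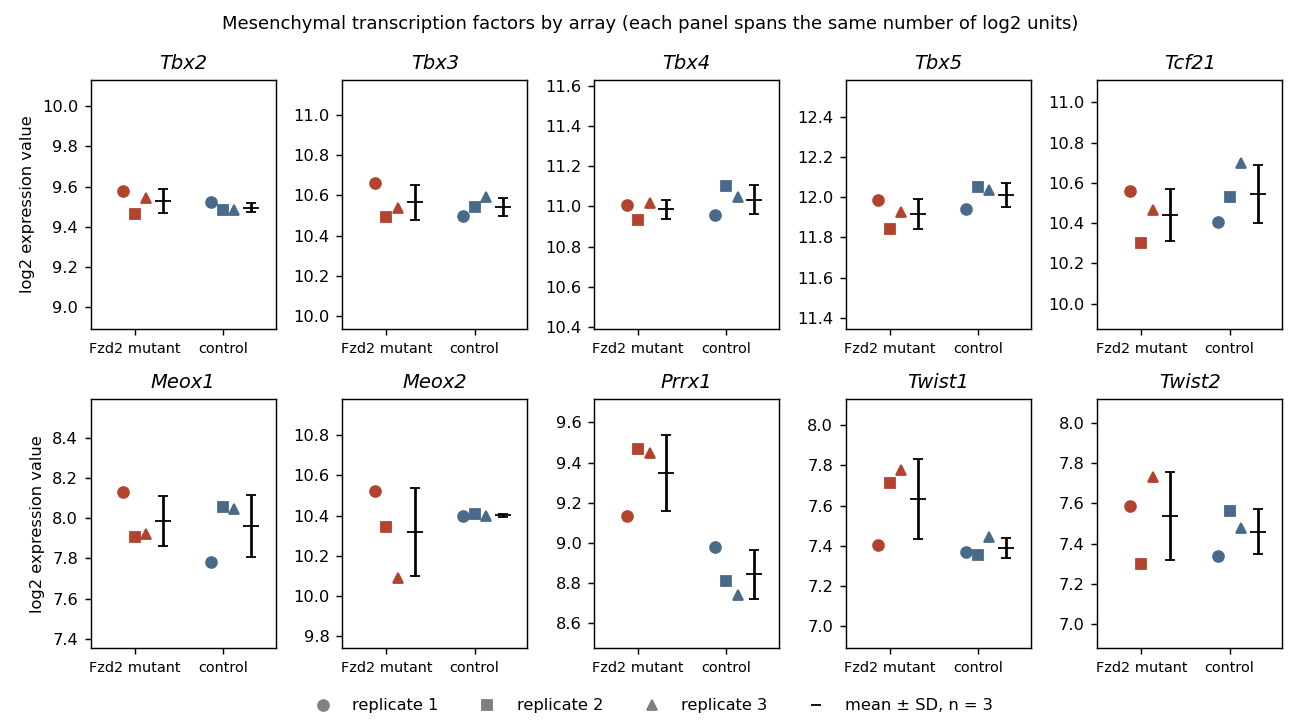
Log2 expression values of the 10 factors in the 3 mutant arrays (red, left) and 3 control arrays (blue, right), with symbols for replicates and bars for the mean ± SD. Prrx1 is the only panel of the 10 in which the groups are apart, with mutants between 9.13 and 9.47 and controls between 8.74 and 8.98.

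Twist1, a basic helix-loop-helix factor of cranial and limb mesenchyme that also acts in epithelial to mesenchymal transition, read 7.41, 7.71 and 7.78 in mutants, against 7.37, 7.35 and 7.45 in controls. Mutant replicates 2 and 3 lay above all controls and mutant replicate 1 lay among them, so that it was the lowest mutant array here as for Prrx1. The log2 difference was 0.24 (SE 0.096, interval 0.019 to 0.47, unadjusted p = 0.0371, limma adjusted p = 0.370), and 0.35 without mutant replicate 1 (unadjusted p = 0.000700). In each of the other 5 fits with 1 array left out the unadjusted p was above 0.05, from 0.0505 without control replicate 3 to 0.125 without mutant replicate 3, where the difference was 0.17. Relative to the mean of the mesenchyme markers, the Twist1 difference was 0.047 (limma unadjusted p = 0.668). On that scale Prrx1 was at 0.31 (limma unadjusted p = 0.0103, adjusted p = 0.0563). The scale puts the median of all genes at -0.18. By limma, 9960 of 22180 genes were under an unadjusted p of 0.05 there, and 2994 were called. The part of mesenchyme content in the Twist1 and Prrx1 differences was not tested. The Twist1 relative Twist2, known from dermis and used as a driver line for lung mesenchyme, read 7.59, 7.30 and 7.73 in mutants, against 7.34, 7.56 and 7.48 in controls. Mutant replicate 2, which was high for Twist1, was the lowest of the 6 arrays for Twist2. The Twist2 difference was 0.080 (SE 0.11, interval -0.18 to 0.34, adjusted p = 0.788), and -0.016 without mutant replicate 3. Mean values of Twist1 and Twist2 lay at the 47th and 46th percentile of all genes, and no detection calls were used, so how far they stand above background is unknown.

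The promoters of Prrx1 and Twist1, the pair with the highest differences, are shown with that of Tbx4, a factor whose interval includes 0. Each runs from 250 bases before to 50 after the start site (RefSeq, GRCm38.p6, 5′ to 3′ on the gene's strand), at chr1:163313601-163313900 (minus strand) for Prrx1, chr12:33957421-33957720 (plus strand) for Twist1 and chr11:85896515-85896814 (plus strand) for Tbx4. Capitals mark matches on either strand to any of 5 motifs.
Prrx1: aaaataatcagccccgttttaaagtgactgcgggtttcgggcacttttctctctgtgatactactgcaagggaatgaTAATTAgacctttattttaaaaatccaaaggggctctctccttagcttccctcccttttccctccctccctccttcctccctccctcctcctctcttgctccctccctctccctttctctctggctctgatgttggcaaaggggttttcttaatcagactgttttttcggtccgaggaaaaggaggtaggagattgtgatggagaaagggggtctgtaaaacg
Twist1: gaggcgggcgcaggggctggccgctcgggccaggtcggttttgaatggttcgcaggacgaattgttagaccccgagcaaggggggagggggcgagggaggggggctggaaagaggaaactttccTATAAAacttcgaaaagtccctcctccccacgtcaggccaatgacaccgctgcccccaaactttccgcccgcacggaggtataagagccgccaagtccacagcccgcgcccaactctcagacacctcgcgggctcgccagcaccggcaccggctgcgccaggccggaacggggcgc
Tbx4: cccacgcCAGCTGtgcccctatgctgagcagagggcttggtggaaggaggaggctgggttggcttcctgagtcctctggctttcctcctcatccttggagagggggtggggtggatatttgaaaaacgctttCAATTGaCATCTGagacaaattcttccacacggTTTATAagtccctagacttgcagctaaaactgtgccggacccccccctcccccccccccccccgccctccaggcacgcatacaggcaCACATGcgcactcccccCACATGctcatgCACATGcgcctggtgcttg
The motifs searched were the E-box CANNTG, which basic helix-loop-helix factors such as Twist1 and Tcf21 bind, the T-box site AGGTGTGA, the homeobox site TAATTA, the TCF/LEF site CTTTGAT of Wnt signalling and the TATA box TATAAA. The Prrx1 window held 1 homeobox match and the Twist1 window 1 TATA match, with no other match in either. The Tbx4 window held 6 E-box matches and 1 TATA match. Of 32851 promoter windows in the table, 72.3% held an E-box, 1.28% the T-box site, 5.29% the homeobox site, 3.73% the TCF/LEF site and 13.6% a TATA box. Windows were available for 6 members, the other 3 being Tcf21, Meox2 and Twist2. Of these 6, 2 held an E-box, 1 the homeobox site, 3 the letters of the TATA box and 0 the T-box or TCF/LEF site, which says only that those letters are not in these windows. The TATA matches began at -126 from the start site in Twist1, -85 in Tbx4 and -29 in Meox2. Those of Tbx4 and Meox2 lay on the opposite strand.

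The 3 mutant arrays did not sit alike around the controls. In mutant replicate 1, 6 of 10 factors lay above all 3 controls and 0 below, against 30.1% and 23.3% of all genes. In mutant replicate 2, 2 factors (Prrx1 and Twist1) lay above all controls and 7 below, against 30.9% and 29.9% of all genes. The 7 were Tbx2, Tbx3, Tbx4, Tbx5, Tcf21, Meox2 and Twist2. In mutant replicate 3, 4 lay above and 2 below, against 31.8% and 25.4%. Median shifts of the 10 factors from their control means were 0.10, -0.056 and -0.011 log2 units in mutant replicates 1, 2 and 3. Mutant replicate 2 also had the highest adipose markers and the lowest epithelial markers, and the part of these in the lower factors there was not tested.

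**Figure D3:**
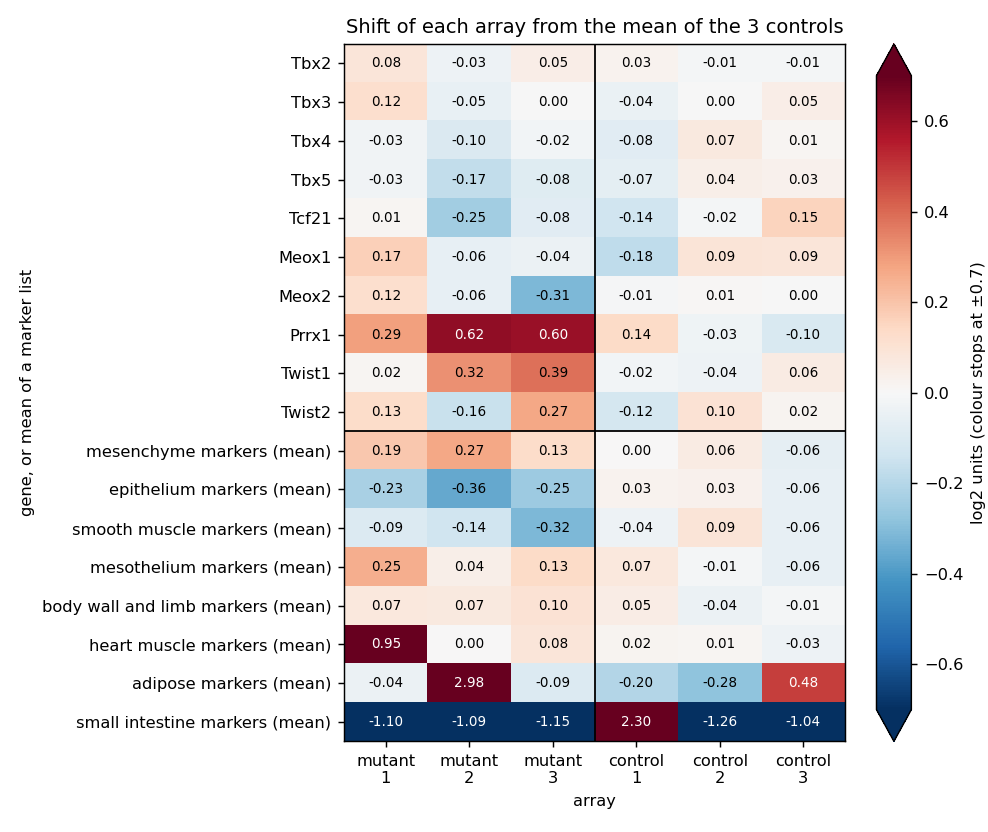
Shift of each array from the mean of the 3 controls, in log2 units, for the 10 factors (upper rows) and for the means of 8 marker lists (lower rows), with mutant arrays in the left columns and colour stopping at the ends of the bar. Prrx1 is shifted by 0.29, 0.62 and 0.60 in the mutants. The heart list is highest in mutant replicate 1 (0.95), and the adipose list in mutant replicate 2 (2.98), with 0.48 in control replicate 3. The small intestine list is at 2.30 in control replicate 1, which raises its control mean, so every other array lies at -1.04 or below.

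Body wall and limb tissue, where Prrx1, Twist1 and Twist2 are also expressed, was checked with 12 markers of limb and body wall mesenchyme, muscle and cartilage. The mean of the list shifted by 0.074, 0.071 and 0.10 log2 units in mutant replicates 1 to 3, and the controls ranged from -0.039 to 0.051 around their own mean. Of the 12, 0 were called by limma. At an unadjusted p under 0.05, 3 were higher and 1 was lower, against 7.34% and 5.15% of all genes. The pair with the smallest p moved in opposite directions. Col2a1, the cartilage collagen gene, read 8.77, 8.67 and 8.71 in mutants, against 8.98, 9.05 and 8.81 in controls (log2 difference -0.23, unadjusted p = 0.0127, adjusted p = 0.301). Tbx15, a T-box factor of skin and limb mesenchyme, read 6.39, 6.60 and 6.30 in mutants, against 6.22, 6.20 and 6.18 in controls (log2 difference 0.23, unadjusted p = 0.0185, adjusted p = 0.319). The other cartilage genes of the list, Matn1 and Acan, were higher, with log2 differences of 0.28 and 0.18 (limma unadjusted p = 0.0189 and 0.0221). Col2a1 lay at the 67th percentile of mean, and Tbx15, Matn1 and Acan at the 25th, 20th and 26th. The part of body wall and limb tissue in the Prrx1 and Twist1 values was not tested.

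Of 15 measured relatives of the 10 factors, other T-box, helix-loop-helix and Prrx genes, 13 had higher and 2 lower mutant means. Over all genes tested, 12153 of 22180 had higher means. The median log2 difference of the 15 was 0.16, and 0 were called by limma. At an unadjusted p under 0.05, 6 were higher and 1 lower, against 7.34% and 5.15% of all genes. Hand2, a factor of heart, limb and neural crest, read 7.44, 7.40 and 7.54 in mutants, against 7.27, 6.92 and 7.08 in controls (log2 difference 0.37, unadjusted p = 0.00369, adjusted p = 0.215). Tbx1, a T-box factor of the pharynx that is also expressed in lung epithelium, was the lower one at that threshold, with 8.75, 8.50 and 8.68 in mutants, against 8.88, 9.09 and 8.98 in controls (log2 difference -0.33, unadjusted p = 0.00393, adjusted p = 0.217). In both genes the groups did not overlap, as in 8 of the 15 relatives (7 higher and 1 lower) and 19.4% of all genes. Mean values of the 15 ran from the 21st percentile of all genes (Tbx19) to the 66th (Tbx1), with Hand2 at the 42nd. How far the dim ones stand above background is unknown.

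Twist and Tcf21 proteins bind DNA as dimers with E proteins, which Id proteins sequester. The E protein genes Tcf3, Tcf4 and Tcf12, given after their values were seen, had log2 differences of -0.079, -0.047 and -0.071. Among the Id genes, Id3 read 9.64, 9.44 and 9.72 in mutants, against 9.25, 9.37 and 9.29 in controls (log2 difference 0.30, unadjusted p = 0.00554, adjusted p = 0.247), and Id1 had a log2 difference of 0.21 (unadjusted p = 0.0369). Of these 7 genes 0 were called by limma, and 2 were higher at an unadjusted p under 0.05, against 7.34% of all genes.

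A list of other genes and signals of lung mesenchyme had a median log2 difference of -0.0036 over 13 measured. Of these 13, 6 had higher and 7 lower means, and 0 were called by limma. At an unadjusted p under 0.05, 2 were lower, against 5.15% of all genes. Those 2 were Hhip (log2 difference -0.23, unadjusted p = 0.00449, adjusted p = 0.230) and Ptch1 (-0.18, unadjusted p = 0.00995, adjusted p = 0.285), targets of Hedgehog signalling from the epithelium to the mesenchyme. Ptch1 stood at 11.48, 11.43 and 11.41 in mutants, against 11.71, 11.58 and 11.60 in controls. Fgf10, which Tbx4 and Tbx5 activate, was outside the naming rule and is given after its values were seen. It read 8.55, 8.65 and 8.23 in mutants, against 8.35, 8.21 and 8.22 in controls (log2 difference 0.22, unadjusted p = 0.0753).

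Among genes known to be repressed by Tbx2 or Tbx3, the cell cycle inhibitor gene Cdkn1a had the highest difference. It stood at 8.92, 9.46 and 8.72 in mutants, against 8.34, 7.99 and 7.87 in controls, a log2 difference of 0.97 (unadjusted p = 0.00127, limma adjusted p = 0.164). Cdkn1a is also a target of p53. The related inhibitor genes Cdkn1b and Cdkn2a had log2 differences of 0.0093 (unadjusted p = 0.883) and 0.13 (unadjusted p = 0.277). The Wnt antagonist genes Frzb and Shisa3, which Tbx2 and Tbx3 repress in lung mesenchyme, had log2 differences of 0.056 (unadjusted p = 0.642) and 0.14 (unadjusted p = 0.0377). Of the 5, 5 had higher mutant means, where 12153 of 22180 genes tested did, and 0 were called by limma. The list was chosen with earlier results of these data known, so this count is a description. Tbx2 and Tbx3 themselves had intervals from -0.12 to 0.16 at the widest. The part of Tbx2 and Tbx3 in these differences was not tested.

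The Snail and Zeb factors, which act beside Twist1 in epithelial to mesenchymal transition, were not called (0 of 4 measured by limma). At an unadjusted p under 0.05, 1 was higher and 1 lower, against 7.34% and 5.15% of all genes. Zeb1 had a log2 difference of 0.16 (unadjusted p = 0.0160) and Snai3 one of -0.18 (unadjusted p = 0.0170). Zeb1 read 9.29, 9.30 and 9.40 in mutants, against 9.13, 9.19 and 9.19 in controls.

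**Figure D4:**
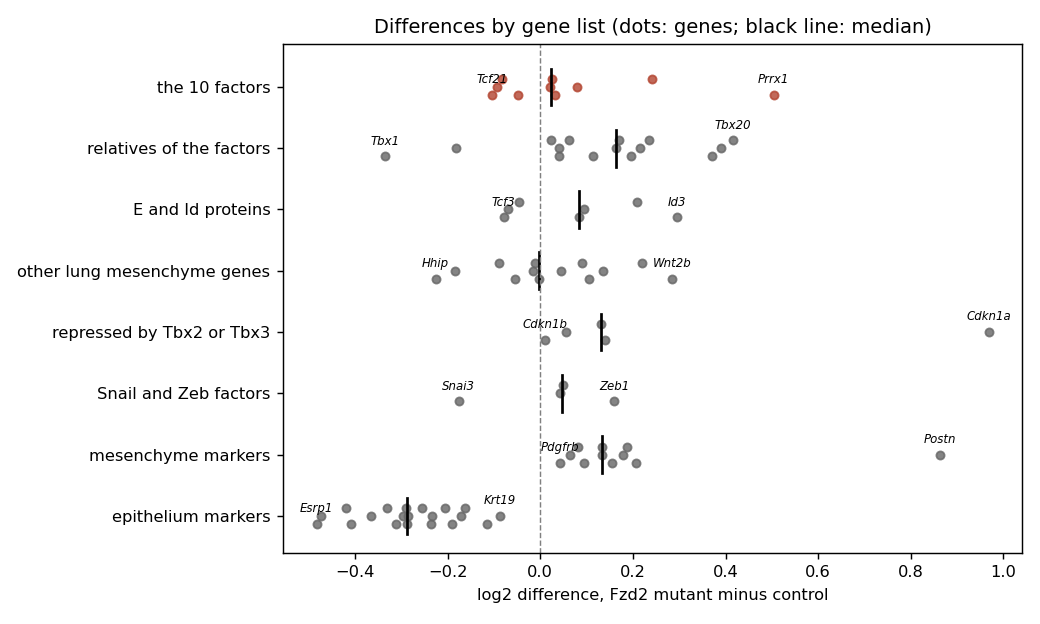
Log2 differences (mutant minus control) of the 10 factors and of 7 related gene lists, with a dot for each gene, a black line at each median, and names at the ends of each list. The 10 factors have a median of 0.023, the mesenchyme markers 0.13 and the epithelium markers -0.29.

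The genes whose values over the 6 arrays were most like those of Prrx1 were B3galt4, Cdc20b, Pxmp2, Phldb3 and Psd, with Pearson r from 0.982 to 0.991 among 14143 candidates. Their log2 differences, from 0.12 (Psd) to 0.17 (Pxmp2), were smaller than that of Prrx1. Those most like Twist1 were Zdhhc25, Krt34, Alx1, Gfra1 and Cxxc4, with r from 0.984 to 0.989. Of these, Alx1, a homeobox factor of head mesenchyme, had a log2 difference of 0.22 and Gfra1, a receptor for the growth factor GDNF, one of 0.21, and all 5 shared with Twist1 the higher values in mutant replicates 2 and 3. With 6 arrays in 2 groups and so many candidates, such values of r are a description of likeness on these arrays.

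**Figure D5:**
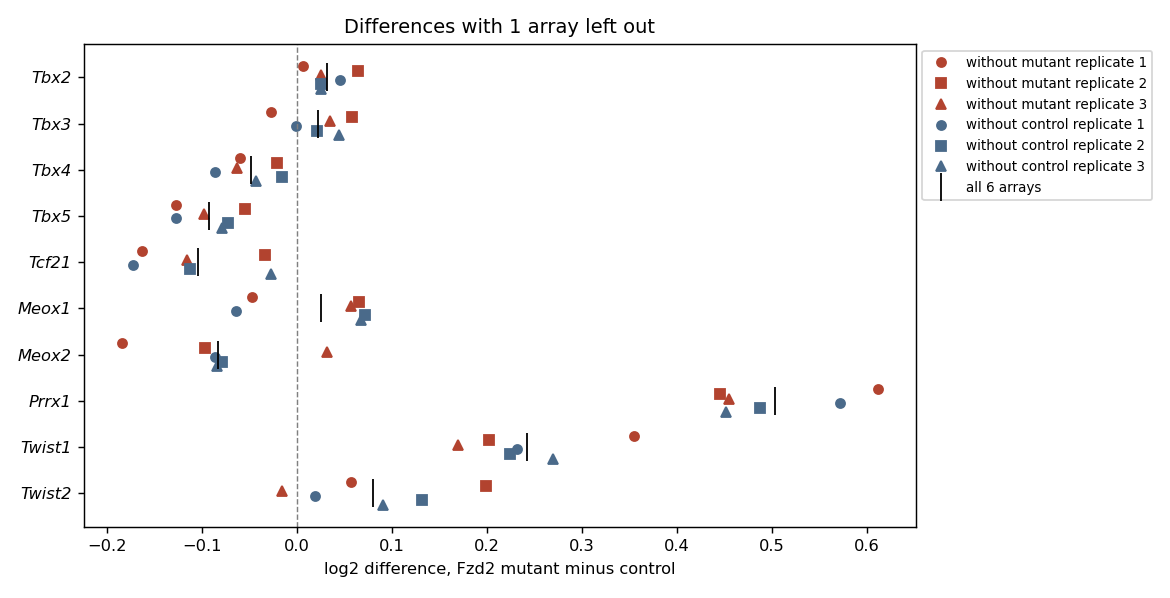
Log2 difference (mutant minus control) of each factor with 1 array left out (red, a mutant array; blue, a control array) and over all 6 arrays (black tick). Prrx1 runs from 0.44 to 0.61 and Twist1 from 0.17 to 0.35, while Tbx3, Meox1, Meox2 and Twist2 cross 0.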

How the data were processed

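Total RNA (100 ng per array) was primed with poly(T), amplified and biotin-labelled, per the labels' protocols. The authors deposited 1 table of log2 expression values for 41345 probe sets; the submitters' processing notes name oligo and RMA without versions. RMA subtracts background, brings arrays to a common distribution and summarises probes, so a change shows only against that of most other genes. The log2 scale was read from the values (array medians 7.29 to 7.32).

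Of the probe sets, 23521 carried 1 symbol in the platform annotation, 1814 several, and 16010 were unnamed here. For the 1082 genes with several probe sets, the brightest was used. Mutants were set against controls over the resulting 22180 genes by limma (version 3.58.1, R 4.3.3) with lmFit and eBayes and group as the model's only term. Tests were two-sided, with Benjamini-Hochberg adjustment over all genes and a threshold of 0.05, and the procedure was tested on simulated data. Differences are mutant minus control with limma's standard error (SE) and 95% interval. Precision is limited by having 3 arrays per group.

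The members and lists were chosen with earlier results of these data known. Named were all members, Fzd2, the 5 genes most like the member of smallest p and the 5 most like the largest other difference (above the 30th percentile of mean), called genes or those of smallest p in each list of related genes, genes repressed by Tbx2 or Tbx3, and up to 2 genes of a marker list, chosen after their values were seen. Matn1 and Acan of the body wall and limb list were named besides, also after their values were seen. Equally numbered replicates did not deviate together (r = -0.045, -0.061 and 0.074). Alternatives were normalization, filters on dim genes, probe set summary, variance models, array weights, the replicate block, scaling to mesenchyme markers and left-out arrays. Plots used Python 3.11.15 with matplotlib 3.10.9.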

Additional observations from a re-analysis of the deposited data

How the results depend on the processing

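No member was called under any of the 16 alternatives run (0 by limma in each), with 1 or 2 members at an unadjusted p under 0.05 in all but the scaling to the pan-mesenchymal mean. That scaling gave 5 of 10, where 9960 of 22180 genes were under 0.05 as well. Over all genes, 14 calls became 8 after a further quantile normalization, 25 and 50 above the 30th and 50th percentile of expression, and 26 with either the trended or the robust variance model. They became 0 with the replicate block (2511 at an unadjusted p under 0.05), 0 with control replicate 1 and mutant replicate 2 both left out (2716) and 0 to 0 without each array in turn (1797 to 3084). Relative to the pan-mesenchymal mean, which lowered the median of all genes to -0.18, there were 2994 calls, 15 higher and 2979 lower, against 4 and 10 otherwise, and the median of the 10 factors was -0.17. There Tbx2 (-0.16), Tbx3 (-0.17), Meox1 (-0.17) and Twist2 (-0.11) reversed, by the construction of the scale. With single arrays left out, Tbx3 ran from -0.028 to 0.057, Meox1 from -0.064 to 0.071, Meox2 from -0.18 to 0.031 and Twist2 from -0.016 to 0.20, and with both the small intestine and the adipose array left out Meox1 was -0.024. For these the cause was not tested beyond the arrays named. Of 158 values of single factors under the alternatives, the other 147 kept direction and call. Prrx1 kept its direction in all, with limma adjusted p from 0.0563 to 0.462. The 0.0563 came from the scaling to the pan-mesenchymal mean, and the next smallest was 0.108, among genes above the 50th percentile. Twist1 and Twist2 could not be tested above the 50th percentile. The replicate block changed no call of a member. With 3 arrays per group, moderate differences could be missed. The Prrx1 difference of 0.50, with an interval from 0.26 to 0.74, was not called.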
